A study of Mus musculus with 2 samples.

Results

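The genes described here are 37 genes of protein folding, quality control and stress sensing in the endoplasmic reticulum (ER). They were taken by name, through current symbols or older synonyms, from a table of 19086 genes measured on Affymetrix arrays. Each gene is represented by its probe set with the highest mean signal over both arrays, and all 37 had one. The cells were 3T3-L1, a mouse preadipocyte line that turns into adipocytes under a hormone cocktail. 1 sample had been transduced with the retroviral vector pMXs-puro carrying Fbxl10, which is driven by a weak LTR promoter, and the other with the empty vector. Fbxl10 is the older name of Kdm2b, a histone demethylase. Both samples were collected at day 2 of differentiation. Both grew in medium with 10% fetal bovine serum, and 2 days after confluence received the cocktail of 0.5 mM isobutylmethylxanthine, 0.25 µM dexamethasone and 1 µg/ml insulin. The labels do not say whether either sample is a clone or a pool of transduced cells. With 1 array per group no difference below has a replicate check, a standard error or a test.

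The ER folds secreted and membrane proteins with the help of chaperones, lectins and disulfide-forming enzymes, and sends those that fail to fold back to the cytosol for degradation. When unfolded proteins accumulate, the sensors Ern1 (IRE1), Eif2ak3 (PERK) and Atf6 start the unfolded protein response. Ern1 splices the mRNA of the transcription factor Xbp1, and spliced Xbp1 and cleaved Atf6 switch on chaperone and degradation genes. Differentiating adipocytes secrete adipokines and matrix, and the Ern1 and Xbp1 pathway is known to be needed for adipogenesis in mouse cells.

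The targeted gene did not follow its label. The 2 probe sets of Fbxl10 read 351 and 420 in the library labelled Fbxl10, against 432 and 558.5 in the empty vector library, log2 differences of -0.30 and -0.41. Whether they lie within the cloned sequence is not stated by the labels, so they may not read the construct. For that reason the sample is called the library labelled Fbxl10, and every direction is drawn between the libraries as labelled. The marker genes of the line were present: all 7 preadipocyte or fibroblast markers were above the detection threshold on both arrays. 7 adipocyte markers with a probe set, Fabp4 among them, were all lower by 2-fold or more. Their summed signal was 1777 in the library labelled Fbxl10, where 3 of the 7 were above the threshold, and 16439.5 in the empty vector library, where 7 were. The preadipocyte or fibroblast markers summed to 28252 in the library labelled Fbxl10 and 19290.4 in the empty vector library. The endothelial and epithelial markers were under the threshold on both arrays. Of 6 macrophage markers 3 were detected, at signals of 68.4 or less, while the macrophage genes Ptprc, Adgre1 and Lyz2 were under the threshold. The part that the lower adipocyte markers play in the results below was not tested, and in a bulk sample fewer cells of a type and less RNA per cell cannot be told apart.

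The ER folding genes were on balance slightly lower in the library labelled Fbxl10, and 6 of them were lower by 1.5-fold or more. A gene counts as detected where its brighter array reached 19.4, the median signal of the table, and 36 of the 37 genes did, all with both signals above it. Derl3, a member of the derlin family of the degradation channel, was under the threshold on both arrays (6 in the library labelled Fbxl10 and 9.6 in the empty vector library) and enters no count. The 36 detected genes had signals between 30.7 and 4179.5 in the library labelled Fbxl10 (median 393), and between 43.2 and 4278 in the empty vector library (median 483). At 2-fold, 2 of the 36 (5.56%) were lower, Dnajb9 and Creld2, beside 5.32% of all 11312 detected genes, so the share of lower genes was that of the whole table. None of the 36 was higher by that much, beside 9.81% of all detected genes. At 1.5-fold, 6 (16.7%) were lower and none was higher, beside 13.2% and 19.5% of all detected genes. The count of 6 was 10 with median centring and 12 with spike-in centring, and 5 at its lowest over the alternatives. By the authors' deposited log2 ratio, Ero1a (-0.4) and Pdia4 (-0.5) fell short of 1.5-fold. Among genes with a signal of at least 100, as most of these genes are, the background was 5.3% lower and 6.64% higher at 2-fold, and 14% lower and 13.7% higher at 1.5-fold, with 51.9% below 0.

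By sign, 26 of the 36 genes (72.2%) were below 0, against 45.9% of all detected genes. With a signal of at least 100 it was 25 of 34 (73.5%), against 51.9%. The count of 26 was 23 by the authors' log2 ratio or the median over probe sets, and 24 after quantile normalization. With median centring it was 31 and with spike-in centring 32. The median log2 difference of the 36 genes was -0.17, against 0.056 over all detected genes, a gap of -0.23 on the log2 scale. That gap was -0.094 after quantile normalization and -0.098 with the trend of the difference on brightness removed. The genes share 1 pair of arrays and are not replicates of a condition. Another gauge of precision is the scatter between probe sets of a single gene, whose SD was 0.30 over 4615 genes with several measurable probe sets, and 0.25 for 20 of the genes described here. It covers probe sets on the same arrays and not differences between cultures. Of 21 genes with more than 1 detected probe set, 12 had all of them below 0, 1 had all above 0, and 8 had probe sets on both sides.

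**Figure D1:**
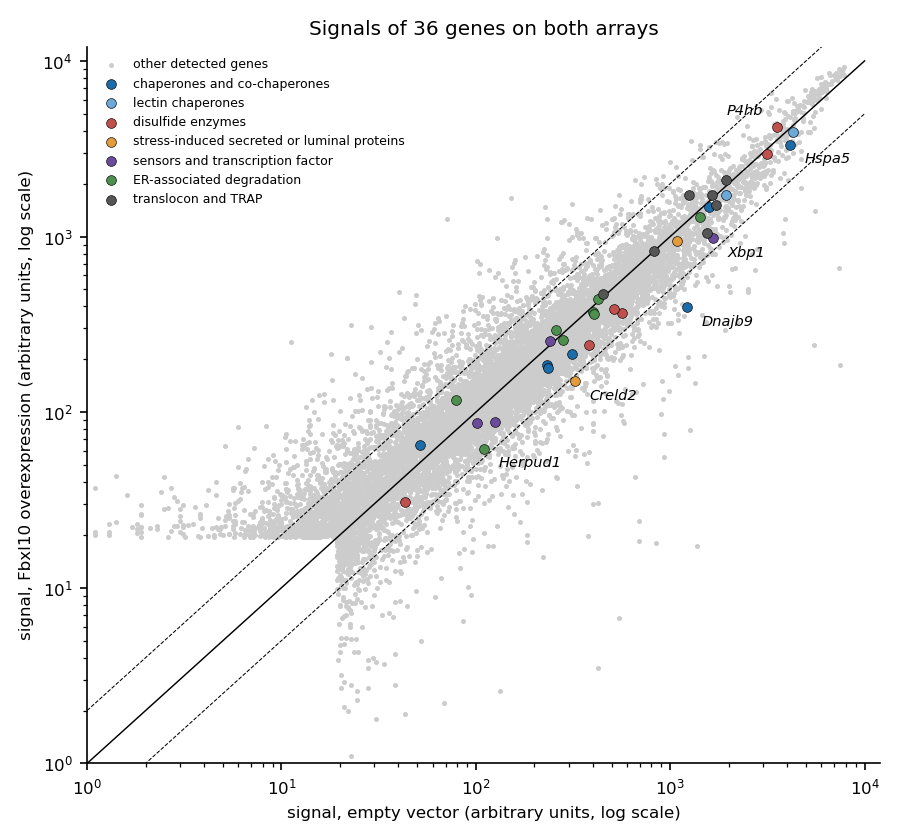
Signal on the array labelled Fbxl10 overexpression (vertical) against signal on the empty vector array (horizontal), both on log scales, with 1 point per detected gene. Grey points are all other detected genes with signals of at least 1, coloured points the 36 ER genes by role, the solid line equality and the dashed lines 2-fold. Dnajb9 (398 in the library labelled Fbxl10, 1218 in the empty vector library) and Creld2 (149.6 in the library labelled Fbxl10, 324.5 in the empty vector library) lie below the lower dashed line, and no coloured point lies above the upper one.

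Among the chaperones and co-chaperones, the J-domain protein Dnajb9 (ERdj4) stood apart. It assists the ER Hsp70 and is a known target of spliced Xbp1. Its probe set read 398 in the library labelled Fbxl10, against 1218 in the empty vector library, 3.06-fold lower (log2 difference -1.61). 209 of the detected genes had a lower difference, and 11102 a higher one. Hspa5 (BiP), the ER Hsp70 itself, read 3333 in the library labelled Fbxl10 and 4156 in the empty vector library (log2 difference -0.32), a difference of less than 1.5-fold. Its further probe sets lay at -0.24 and 0.10. Hsp90b1 (GRP94), the ER member of the Hsp90 family, read 1473 in the library labelled Fbxl10 and 1583 in the empty vector library (log2 difference -0.10), with the other probe set at -0.42.

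Partners of Hspa5 spread around it. The J-domain co-chaperone Dnajb11 (ERdj3) read 215 in the library labelled Fbxl10, against 311 in the empty vector library (log2 difference -0.53). Dnajc3 (p58IPK), another co-chaperone, read 178 in the library labelled Fbxl10 and 234 in the empty vector library (log2 difference -0.40), but its 4 probe sets ran from -0.40 to 0.73 and their median was 0.056. Hyou1 (GRP170), a nucleotide exchange factor for Hspa5, also gave probe sets that disagree. The brightest read 185 in the library labelled Fbxl10 and 232 in the empty vector library (log2 difference -0.33), the next 75.2 in the library labelled Fbxl10 and 167 in the empty vector library (log2 difference -1.15), which is 2.22-fold lower, and the dimmest 42 in the library labelled Fbxl10 and 38 in the empty vector library (log2 difference 0.14). Sdf2l1, a partner of Dnajb11 in the lumen, was the single member of this group above 0, at 64.7 in the library labelled Fbxl10 and 51.6 in the empty vector library (log2 difference 0.33). Over all 7 chaperones and co-chaperones, 6 were below 0 and the median was -0.33.

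The lectin chaperones differed little. Calr (calreticulin), which holds newly glycosylated proteins in the lumen, read 3940.4 in the library labelled Fbxl10 and 4278 in the empty vector library (log2 difference -0.12). Canx (calnexin), its membrane-bound relative, read 1715 in the library labelled Fbxl10 and 1946 in the empty vector library (log2 difference -0.18). All 3 probe sets of each gene lay below 0, the lowest at -0.29 for Calr and -0.18 for Canx.

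Enzymes that make and shuffle disulfide bonds had the lowest median of the groups with more than 4 members, -0.45 over 6 genes, of which 5 were below 0. Ero1a (named Ero1l in the table), the oxidase that recharges protein disulfide isomerases, read 241 in the library labelled Fbxl10, against 383 in the empty vector library, 1.59-fold lower (log2 difference -0.67). Its 3 probe sets all lay below 0, between -0.83 and -0.39. The second oxidase Ero1b was dim, at 30.7 in the library labelled Fbxl10 and 43.2 in the empty vector library (log2 difference -0.49). Among the isomerases, Pdia4 (ERp72) read 368 in the library labelled Fbxl10, against 564 in the empty vector library, 1.53-fold lower (log2 difference -0.62), and Pdia6 (P5) read 387 in the library labelled Fbxl10, against 514 in the empty vector library (log2 difference -0.41). The bright isomerases did not share that difference. Pdia3 (ERp57), which works on glycoproteins with Calr and Canx, read 2965 in the library labelled Fbxl10 and 3149 in the empty vector library (log2 difference -0.087). Its dimmer probe set read 46.1 in the library labelled Fbxl10 and 34.5 in the empty vector library (log2 difference 0.42). P4hb, the founding protein disulfide isomerase and also a subunit of collagen prolyl 4-hydroxylase, was higher in the library labelled Fbxl10, at 4179.5 against 3536 in the empty vector library (log2 difference 0.24).

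Creld2 and Manf encode luminal proteins that ER stress induces and that cells also secrete. Creld2 read 149.6 in the library labelled Fbxl10, against 324.5 in the empty vector library, 2.17-fold lower (log2 difference -1.12), with a single probe set. In the authors' deposited table its log2 ratio was -0.9, which falls short of 2-fold. Manf, in contrast, read 949 in the library labelled Fbxl10 and 1079 in the empty vector library (log2 difference -0.19).

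Of the stress sensors and their transcription factor, Xbp1 had the largest difference. The brightest of its 3 probe sets read 977 in the library labelled Fbxl10, against 1669 in the empty vector library, 1.71-fold lower (log2 difference -0.77). The other probe sets read 826 in the library labelled Fbxl10 and 1467 in the empty vector library (log2 difference -0.83) and 288 in the library labelled Fbxl10 and 460.4 in the empty vector library (log2 difference -0.68). The 3 log2 differences thus lay close together, from -0.83 to -0.68. Whether they tell spliced from unspliced Xbp1 mRNA is not given in the sources used here. Ern1, which splices it, read 88 in the library labelled Fbxl10, against 126 in the empty vector library (log2 difference -0.52) at its brightest probe set. A dimmer Ern1 probe set fell below the threshold in the library labelled Fbxl10 alone (16.3, against 28.5 in the empty vector library), and the authors' deposited table gives Ern1 a log2 ratio of -0.2 at the brightest. Atf6 read 86.3 in the library labelled Fbxl10 and 102 in the empty vector library (log2 difference -0.24), with probe sets on both sides of 0 and the highest at 0.16. Eif2ak3, the kinase that slows translation under stress, read 254 in the library labelled Fbxl10 and 242 in the empty vector library (log2 difference 0.071), so its level was nearly equal between the libraries.

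Degradation of misfolded ER proteins was mixed, with a median of -0.11 over 8 detected genes, 5 of them below 0. Herpud1, a stress-induced scaffold of the ubiquitin ligase complex, read 62 in the library labelled Fbxl10, against 110.2 in the empty vector library, 1.78-fold lower (log2 difference -0.83), and its second probe set lay at -0.67. The ligase Syvn1 (HRD1) read 374 in the library labelled Fbxl10 and 399.7 in the empty vector library (log2 difference -0.097), and its partner Sel1l read 293.5 in the library labelled Fbxl10 and 258 in the empty vector library (log2 difference 0.19). These core subunits were thus close to equal at their brightest probe sets. The 4 probe sets of Sel1l ran from -0.15 to 0.40. Derl1, a derlin of the export channel, had all 4 probe sets below 0, between -0.47 and -0.097, and read 1289.9 in the library labelled Fbxl10 and 1430.2 in the empty vector library at the brightest. Derl2 read 361 in the library labelled Fbxl10 and 405 in the empty vector library (log2 difference -0.16), with its other probe set at 0.21. Of the mannose-trimming proteins that mark glycoproteins for disposal, Edem2 was the highest of all 36 genes, at 118 in the library labelled Fbxl10 against 79.1 in the empty vector library (log2 difference 0.57). In the authors' deposited table its log2 ratio was 0.7, past 1.5-fold. Edem1 (-0.12) and Edem3 (0.047) were near 0.

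Genes of the translocon, the channel that lets new proteins into the ER, had a median of 0.054 over 7 genes, which was -0.17 with spike-in centring. Sec61a1, the channel-forming subunit, read 1508 in the library labelled Fbxl10 and 1718 in the empty vector library (log2 difference -0.19), and its 5 probe sets lay within a narrow range from -0.25 to -0.15. The small subunit Sec61b was equal, at 823.6 in the library labelled Fbxl10 and 824.1 in the empty vector library. Sec61g, the other small subunit, read 1720.1 in the library labelled Fbxl10, against 1246.5 in the empty vector library (log2 difference 0.46), on a probe set whose name ends in _x_at, a mark for probes that can bind related transcripts. It passed 1.5-fold after quantile normalization (log2 difference 0.59). The translocon-associated TRAP complex was uneven. Its subunit Ssr1 read 1046 in the library labelled Fbxl10, against 1546 in the empty vector library (log2 difference -0.56), and all 4 probe sets of Ssr1 lay below 0, the highest at -0.33. Ssr2 (0.054), Ssr3 (0.10) and Ssr4 (0.082), the remaining subunits of the same complex, were near 0 at their brightest probe sets. The dimmer probe sets of Ssr4 lay at 0.31 and 0.48.

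**Figure D2:**
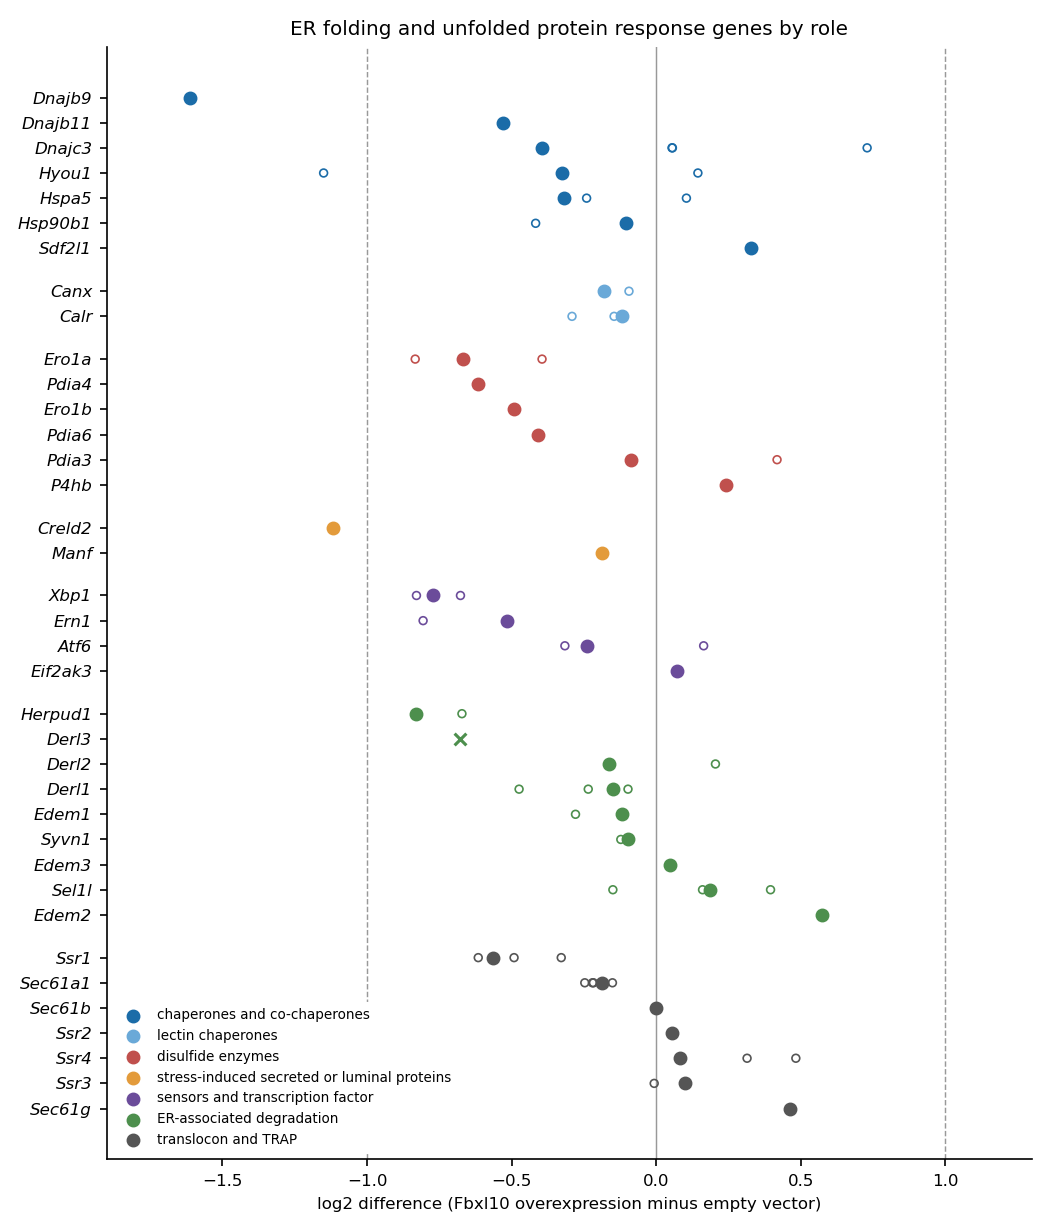
Log2 difference (library labelled Fbxl10 overexpression minus empty vector, horizontal) of each of the 37 genes, in 7 groups by role. Filled points are the brightest probe set, open points further detected probe sets, the cross Derl3, which was under the threshold, and dashed lines 2-fold. Dnajb9 (-1.61) and Creld2 (-1.12) lie past the left dashed line, and so does 1 open point of Hyou1 (-1.15).

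The promoters of some of these genes hold sequence elements of the unfolded protein response. Because the genes were chosen by name for ER folding and stress, a high share with such elements is not an independent result. The ER stress element, ERSE, is a CCAAT box bound by NF-Y and, after a 9-base spacer, a CCACG box bound by Atf6 or Xbp1. 3 motifs were searched on both strands of RefSeq promoter windows (GRCm38.p6, 250 bases before to 50 after the gene start, 300 in all). They were ERSE (CCAAT, 9 bases of any kind, CCACG), ERSE-II (ATTGG, 1 base of any kind, CCACG) and UPRE, the Xbp1 element (TGACGTGG). 31 of the 37 genes had a window. Atf6, Hyou1, Manf, Derl1, Sec61a1 and Ssr2 had none in the table used here. An exact ERSE stood in 10 of the 31 genes (32.3%), beside 39 of all 32851 windows (0.119%). The background counts windows, of which some genes have several, and includes the ER genes. By gene, an ERSE stood in 37 of 27025, the 10 and 27 others. ERSE-II stood in 2 (6.45%), Herpud1 and Dnajb11, beside 12 windows (0.0365%). UPRE stood in none of the 31, beside 222 windows (0.676%). These matches are a description of the letters and not evidence of binding.

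The windows of the lowest gene with an ERSE, of the main chaperones and of Herpud1, which has an ERSE-II before its start, are shown 5′ to 3′ on the strand of each gene, with the fixed bases of the motif in capitals. A motif on the opposite strand appears as CGTGG followed by ATTGG. Hsp90b1 holds 2 ERSE, 1 on each strand. The Dnajb9 window is shown because the gene was the lowest and its window has none of the motifs.
Creld2 promoter (GRCm38.p6 chr15:88819396-88819695, plus strand): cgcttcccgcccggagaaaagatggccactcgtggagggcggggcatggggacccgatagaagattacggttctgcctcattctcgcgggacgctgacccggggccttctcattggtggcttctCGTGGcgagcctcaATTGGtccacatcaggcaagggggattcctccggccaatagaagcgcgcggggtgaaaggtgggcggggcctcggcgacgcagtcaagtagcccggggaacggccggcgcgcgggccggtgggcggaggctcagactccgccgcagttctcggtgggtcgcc
Hspa5 promoter (GRCm38.p6 chr2:34771840-34772139, plus strand): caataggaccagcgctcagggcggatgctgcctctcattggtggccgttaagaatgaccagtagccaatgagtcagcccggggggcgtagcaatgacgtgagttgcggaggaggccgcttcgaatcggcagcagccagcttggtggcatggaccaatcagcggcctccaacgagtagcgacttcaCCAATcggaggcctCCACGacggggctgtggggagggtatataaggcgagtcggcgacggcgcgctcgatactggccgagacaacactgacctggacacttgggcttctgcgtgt
Hsp90b1 promoter (GRCm38.p6 chr10:86705395-86705694, minus strand): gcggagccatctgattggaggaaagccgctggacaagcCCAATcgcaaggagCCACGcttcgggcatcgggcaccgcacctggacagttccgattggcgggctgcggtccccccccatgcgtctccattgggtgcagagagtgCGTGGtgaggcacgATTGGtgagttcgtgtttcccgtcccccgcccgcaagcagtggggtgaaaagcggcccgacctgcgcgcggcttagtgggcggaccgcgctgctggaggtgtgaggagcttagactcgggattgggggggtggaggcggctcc
Herpud1 promoter (GRCm38.p6 chr8:94386179-94386478, plus strand): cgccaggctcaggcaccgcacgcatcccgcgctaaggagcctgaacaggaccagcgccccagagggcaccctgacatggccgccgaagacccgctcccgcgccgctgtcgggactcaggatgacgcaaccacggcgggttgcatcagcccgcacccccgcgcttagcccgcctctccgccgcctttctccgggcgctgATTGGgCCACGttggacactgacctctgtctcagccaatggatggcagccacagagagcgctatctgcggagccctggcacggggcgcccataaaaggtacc
Dnajb9 promoter (GRCm38.p6 chr12:44210019-44210318, minus strand): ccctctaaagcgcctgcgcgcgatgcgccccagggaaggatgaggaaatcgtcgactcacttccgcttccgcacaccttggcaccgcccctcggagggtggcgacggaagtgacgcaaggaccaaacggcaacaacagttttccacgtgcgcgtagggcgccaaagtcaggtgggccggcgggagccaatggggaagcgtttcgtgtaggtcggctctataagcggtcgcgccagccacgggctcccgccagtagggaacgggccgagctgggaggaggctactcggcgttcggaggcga

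The ERSE copies of the other genes, turned so that CCAAT comes first, show the same boxes around spacers that differ (capitals mark the boxes).
Calr (chr8:84847075-84847093): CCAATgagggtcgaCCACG
Canx (chr11:50325800-50325818): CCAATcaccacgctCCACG
Pdia6 (chr12:17266491-17266509): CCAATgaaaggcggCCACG
Ero1b (chr13:12565682-12565700): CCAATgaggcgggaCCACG
Dnajc3 (chr14:118937827-118937845): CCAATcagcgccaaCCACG
Syvn1 (chr19:6046532-6046550): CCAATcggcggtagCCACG
Derl3 (chr10:75893242-75893260): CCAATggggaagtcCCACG
The ERSE-II of Dnajb11 lies after the gene start, with both boxes in capitals.
Dnajb11 (chr16:22857852-22857862): ATTGGcCCACG

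12 genes had an ERSE or ERSE-II, and all 11 detected ones were below 0, with a median of -0.40 and a range from -1.12 (Creld2) to -0.097 (Syvn1). Of the 19 genes with a window and neither element, 10 were below 0, and their median was -0.00088. Of all detected genes 45.9% were below 0, and of those with a signal of at least 100, 51.9%. Dnajb9, Xbp1, Ero1a and Pdia4, which are 4 of the 6 genes past 1.5-fold, belong to that group. Outside the list, 37 further genes had an exact ERSE or ERSE-II, of which 10 were detected. Of these 10 genes, 4 were below 0, with a median of 0.15. The count was 5 of 10 with median centring, quantile normalization or the brightness trend removed, and 6 of 10 with spike-in centring. With a signal of at least 100 it was 4 of 7, with a median of -0.083. Of the 19 ER genes without an element, 15 were below 0 with spike-in centring and 14 with median centring. The number was 9 after quantile normalization, 8 with the median over probe sets and 7 by the authors' log2 ratio. The highest of the 10 detected genes outside the list was Spats2l. It was measured on 1 array and was higher in the library labelled Fbxl10, by at least 4.67-fold. After quantile normalization 10 of the 11 genes were below 0, since Hsp90b1 lay at 0.035, and with the median over probe sets 10 were, since Dnajc3 lay at 0.056. The grouping by ERSE or ERSE-II was made after values were seen.

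**Figure D3:**
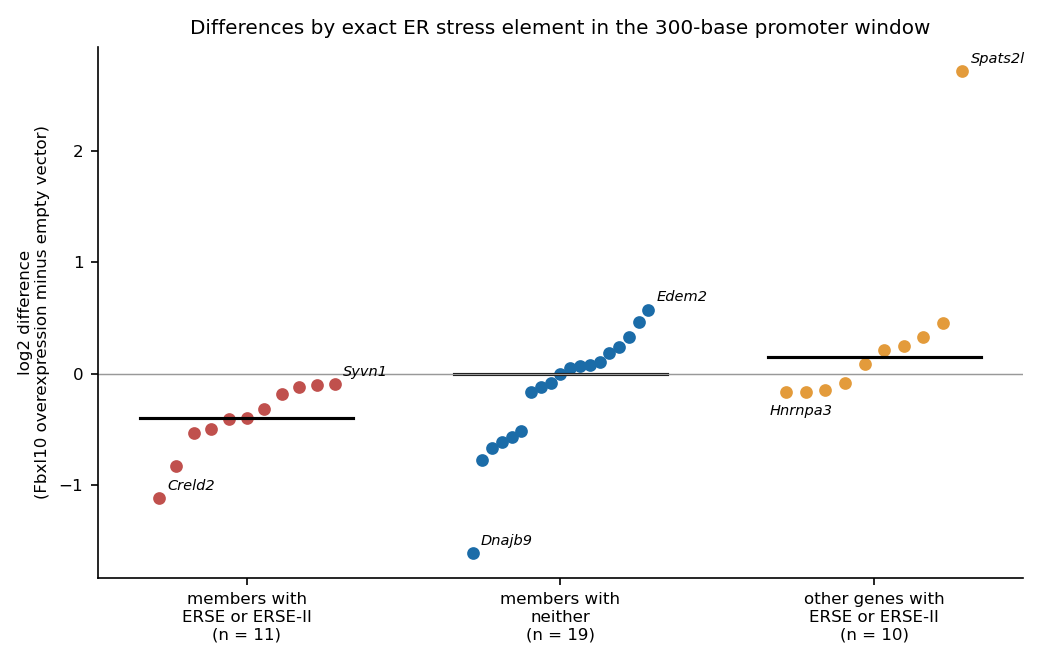
Log2 difference (library labelled Fbxl10 overexpression minus empty vector, vertical) of detected genes by exact ERSE or ERSE-II in the promoter window. Points are genes and bars medians. The 11 ER genes with an element all lie below 0 (median -0.40), the 19 without spread from -1.61 to 0.57, and 10 other genes with an element centre on 0.15.

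Further genes of the secretory pathway put these values in context. They came from 6 other lists, drawn up by function. Among 36 detected ER folding and stress genes outside the list, none was past 2-fold in either direction, and the median was 0.032. The highest, Creb3l2, a membrane-bound transcription factor related to Atf6, read 466 in the library labelled Fbxl10, against 234 in the empty vector library (1.99-fold higher). The lowest was the thioredoxin-related Tmx4, at 819.6 in the library labelled Fbxl10 against 1405.5 in the empty vector library (log2 difference -0.78). With 20 detected members, ER-associated degradation outside the list had a lower median, -0.27, with 16 genes below 0 and none past 2-fold. Rad23b, which hands ubiquitinated proteins to the proteasome, was lowest (-0.80), and Os9, a lectin of the ligase complex, highest (0.69). The genes of signal peptide handling, translocation and N-glycan transfer were the least varied, all 31 within 1.5-fold and with a median of -0.094. They ran from -0.52 for the glucosidase Mogs to 0.20 for the folding sensor Uggt2. Uggt2 was close to the threshold, at 26.5 in the library labelled Fbxl10 and 23 in the empty vector library. The brighter Prkcsh also lay at 0.20.

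Of these lists, that of the Eif2ak3 branch held the largest difference below 0. Of 18 detected genes in the PERK and ATF4 list, 4 (22.2%) were lower by 2-fold or more, beside 5.32% of all detected genes, around a median of -0.23. 1 (5.56%) was higher by as much, beside 9.81% of all detected genes. Chac1, a glutathione-degrading enzyme, read 22.5 in the library labelled Fbxl10, against 128.5 in the empty vector library, 5.71-fold lower. Mthfd2, a mitochondrial folate enzyme, read 144 in the library labelled Fbxl10, against 725 in the empty vector library, 5.03-fold lower. The transcription factor Atf5 was 2.22-fold lower, and the pseudokinase Trib3 2.03-fold lower at low signals (24.7 in the library labelled Fbxl10 and 50.2 in the empty vector library). Atf4 and Ddit3, named after their values were seen, differed less. Atf4 itself read 784 in the library labelled Fbxl10 and 1183 in the empty vector library (log2 difference -0.59). Ddit3 (CHOP), the transcription factor of prolonged ER stress, was near equal, at 157 in the library labelled Fbxl10 and 136 in the empty vector library (log2 difference 0.21). Vldlr, a lipoprotein receptor that ATF4 can induce, was 2.56-fold higher, at 1191 in the library labelled Fbxl10 and 466 in the empty vector library. By sign, 12 of the 18 genes were below 0 and 6 above. Asns (-0.039), Slc3a2 (-0.029) and Ddit4 (0.019) were near 0, and Psat1 (0.28) and Sesn2 (0.43) above it. Ppp1r15a lay at 0.32, but at -0.3 by the authors' log2 ratio. Nars (-0.58), Ppp1r15b (-0.56), Nupr1 (-0.46), Cebpb (-0.31) and Sars (-0.15) were below 0. These genes were also named after their values were seen. The list was drawn up with earlier results of these data known, so its share of lower genes is not independent support for a lower branch.

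Of 29 detected vesicle coat and KDEL receptor genes, which serve export from the ER, 1 (3.45%) was past 2-fold higher and none past 2-fold lower (median 0.073), beside 9.81% and 5.32% of all detected genes. That gene was Sec24d, a cargo adaptor of the COPII coat, at 443.5 in the library labelled Fbxl10, against 182 in the empty vector library (2.43-fold higher). Its paralog Sec24a was the lowest of the list (-0.77). In the list of 16 collagen folding genes, 2 (12.5%) were past 2-fold higher and none past 2-fold lower (median 0.067), so the share of higher genes was near the 9.81% of all detected genes. The count was 1 where detection on both arrays or a signal of at least 100 was required. P4ha2, a catalytic subunit of collagen prolyl 4-hydroxylase, which P4hb completes, read 916 in the library labelled Fbxl10, against 371 in the empty vector library (2.47-fold higher). P4ha3, another catalytic subunit, was measured on 1 array (51.9 in the library labelled Fbxl10, against 10.6 in the empty vector library) and was at least 2.68-fold higher. P3h2, a prolyl 3-hydroxylase, was lowest (-0.77). With spike-in centring the medians of the other ER folding, vesicle coat and collagen lists were below 0, at -0.19, -0.15 and -0.15.

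**Figure D4:**
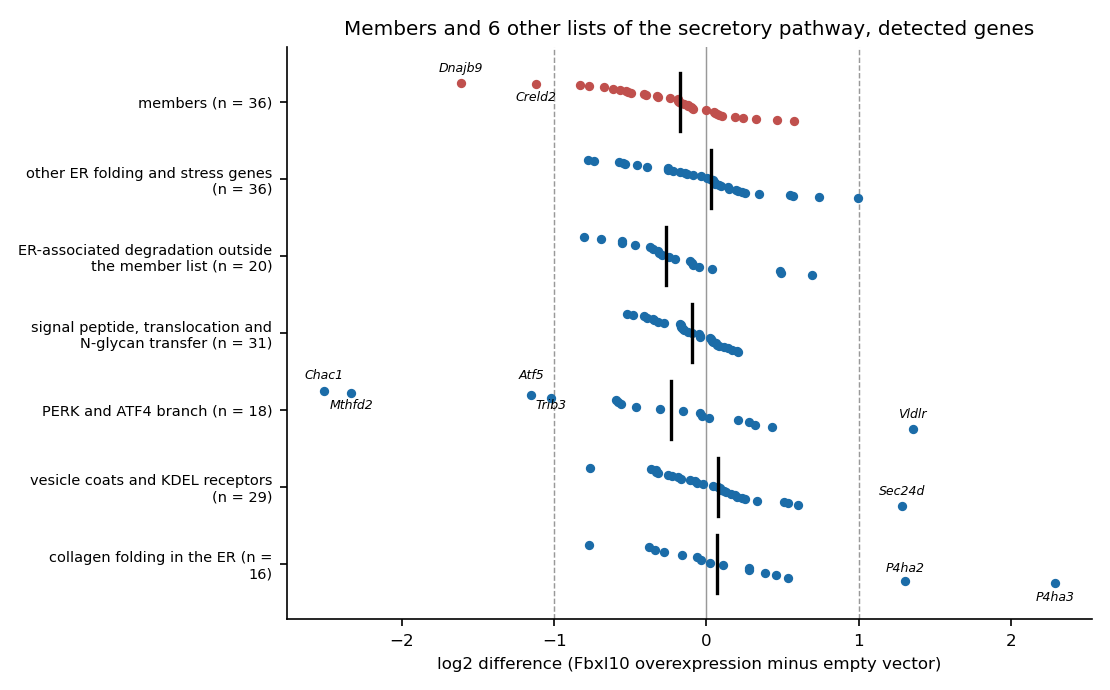
Log2 differences (library labelled Fbxl10 overexpression minus empty vector, horizontal) of the detected genes in the ER folding list (members, red) and in 6 other secretory pathway lists (blue). Points are genes, black bars list medians, dashed lines 2-fold, and genes past 2-fold are named. The value of P4ha3 includes a signal under the threshold. The medians run from -0.27 to 0.073, and genes past 2-fold lower stand in the ER folding and the PERK and ATF4 lists.

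Dnajb9 stayed the lowest under the 11 alternatives tried, between -1.83 and -1.52. Creld2 lay between -1.34 and -0.9, Herpud1 between -1.05 and -0.70, Xbp1 between -0.99 and -0.66, Ero1a between -0.89 and -0.40, and Pdia4 between -0.84 and -0.50. The lowest value of each came from centring on the hybridization spike-ins, whose mean lay 0.22 above 0 as deposited, and with it Herpud1 was also at least 2-fold lower. The highest came from the authors' deposited table for Creld2, Ero1a, Herpud1 and Pdia4. Hspa5 lay between -0.54 and -0.1, and P4hb stayed above 0, between 0.020 and 0.24.

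**Figure D5:**
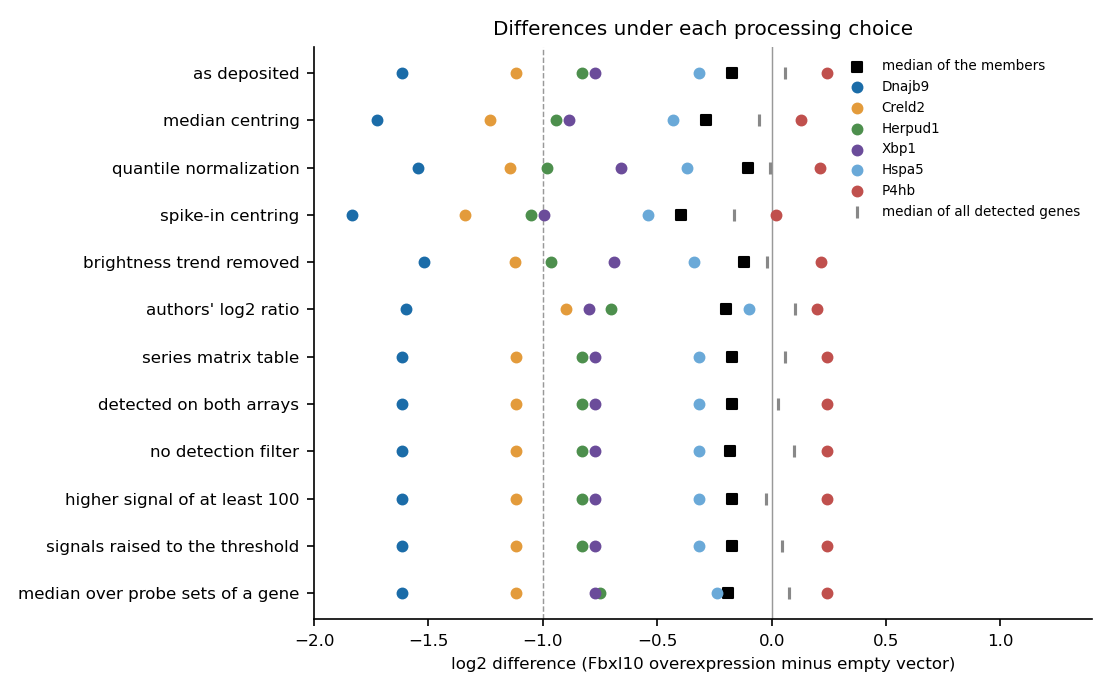
Log2 difference (library labelled Fbxl10 overexpression minus empty vector, horizontal) of 6 genes and of the median over the detected ER folding genes (black squares), for the signals as deposited and for 11 alternatives. Grey ticks are the median of all detected genes under the same treatment, and the dashed line is 2-fold lower. The black squares stay between -0.39 and -0.10, left of the grey ticks.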

How the data were processed

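Total RNA of 2 samples was labelled with biotin and hybridised to 1 Affymetrix array each, per the labels. The deposited table holds a linear signal intensity per array for 45101 probe sets, and in both the mean after trimming 2% at each end was 100, as found from the values. The summarisation software is not given in the sources used here. The authors' deposited log2 ratio, to 1 decimal, is positive where the library labelled Fbxl10 is higher. A further deposited table of intensities held the same values.

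Log2 differences (library labelled Fbxl10 minus empty vector) were computed from the deposited signals. Symbols were updated through RefSeq (assembly GRCm38.p6). 19755 probe sets matched a current symbol and 11807 a synonym, 2405 kept the name in the table, and 11 of the 37 genes stood under an older name. Sec61g and Xbp1 were among 7 of the 37 genes represented by a probe set whose name ends in _s_at or _x_at. The name Tra1, shared by several genes, was read as Hsp90b1 from the description (gp96). Where a gene had 1 signal under the threshold of 19.4, its fold is the brighter signal over 19.4, written "at least". No test was possible with 1 array per group. Every ER folding gene was to be accounted for, with both signals given past 1.5-fold, under the threshold on an array and for the main genes of each group, and other lists by genes past 2-fold and otherwise their highest and lowest detected genes. The genes, lists and alternatives were chosen with earlier results of these data known. Steps were tested on simulated data. Python 3.11.15, numpy 2.4.6, pandas 2.3.3 and statsmodels 0.14.6 were used. Precision is limited by having 1 array per group.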

Additional observations from a re-analysis of the deposited data

How the results depend on the processing

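11 alternatives to the deposited signals were tried: median centring, quantile normalization, spike-in centring, removal of the brightness trend by lowess (span 0.3), the authors' log2 ratio, the other deposited table, no detection filter, detection on both arrays, a signal of at least 100, signals raised to the threshold and the median over probe sets. None of the 6 ER folding genes past 1.5-fold as deposited changed sign. Dnajc3, within 1.5-fold as deposited, ran from -0.62 to 0.056 over the alternatives. The number of ER folding genes at least 2-fold lower was 1 by the authors' log2 ratio and 2 or 3 otherwise, and none was at least 2-fold higher under any alternative. The number at least 1.5-fold lower was 10 with median centring and 12 with spike-in centring, and 5 at its lowest. By the authors' log2 ratio, Ero1a (-0.4) and Pdia4 (-0.5) were not among them. The number at least 1.5-fold higher was 1 with quantile normalization and by the authors' log2 ratio. Over all detected genes, spike-in centring put 956 past 2-fold lower, against 602 as deposited, where 763 were higher, against 1110. The share of 2-fold calls that were higher thus came to 44.4%, from 64.8% as deposited, and to 47.5% with the brightness trend removed (716 higher). The median over all detected probe sets was -0.11 with spike-in centring and -0.013 with the trend removed, against 0.11 as deposited. Detection on both arrays gave 648 higher, no detection filter 3326 higher and 2019 lower, and a signal of at least 100 gave 486 higher and 388 lower, as fewer or more genes enter. In the other lists of the secretory pathway, the ER folding and stress list had 1 gene at least 2-fold higher with quantile normalization, the brightness trend removed or the authors' log2 ratio. Spike-in centring put 1 gene of the further degradation list at least 2-fold lower. The PERK and ATF4 list had 2 genes at least 2-fold higher with no detection filter. The collagen folding list had 1 gene at least 2-fold higher when detection on both arrays or a signal of at least 100 was required, and 1 at least 2-fold lower with the median over probe sets. Where no reason is given, the cause was not tested. No paired analysis was possible because each group has 1 sample.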
